A study of Mus musculus with 33 samples.

Results

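Transcripts of platelet-derived growth factor (PDGF) genes were followed through the cell classes of the mouse hippocampal neurogenic niche. These were the ligand genes Pdgfa, Pdgfb and Pdgfc and the receptor genes Pdgfra and Pdgfrb. The members were the rows carrying these 5 symbols, 5 of 18571 genes counted in the series. The question was which niche lineages send and which receive, as far as transcripts can show it. Protein, secretion and receptor activity were not measured.

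PDGF ligands are secreted as dimers, and they act on receptor tyrosine kinases that pair up on binding. The alpha receptor binds the A, B and C chains, while the beta receptor binds mainly the B chain. In the brain, PDGF-A is known as a mitogen for oligodendrocyte precursor cells, and PDGF-B made by endothelial cells is known for recruiting pericytes, the mural cells of small vessels.

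Single cells came from wild-type C57BL/6 hippocampus after depletion of neurons, in that the live cells sorted were those without GluR1 and Cd24 staining. The old library came from mice older than 12 months of the same strain, and the Nestin-GFP library from GFP-positive hippocampal cells of NestinGFP mice, a sort on the reporter of the neural progenitor gene Nestin. Each was a single library, so neither allowed a test; all samples were labelled wild-type. The 31 niche libraries belonged to 5 experiments, for which the labels give no age. Experiments were taken as replicates, and since the labels do not say that they used separate animals, p-values measure only the spread between these experiments. The libraries were made with SORT-seq, which tags the 3' ends of transcripts with unique molecular identifiers (UMIs).

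Of 4608 wells, 1738 held at least 1000 transcripts and were kept as cells, namely 138 old, 315 Nestin-GFP and 1285 niche cells. The niche experiments held between 450994 and 2565578 transcripts, with medians of 1943 to 12392 per cell, and no 2 wells had identical counts. Cells were clustered without the 5 members and named from markers; 26 niche cells, led by Reln, Trp73 and Ndnf, stayed unnamed. The markers of a class were found in at least 10% of its cells for 13 of 13 markers in astrocyte-like and 12 of 12 in OPC-like cells. The number was 11 of 11 in microglia-like and in endothelial-like, and 9 of 10 in mural-like cells. The same markers had named the classes, so this is not a check of the names. In mural-like cells, 11 of 11 microglia and 11 of 14 neuroblast markers also reached 10% of cells. The named niche classes held 250 astrocyte-like, 26 neural stem cell-like, 211 neuroblast-like, 38 proliferating, 248 oligodendrocyte precursor (OPC)-like, 13 committed precursor-like, 66 mature oligodendrocyte-like, 306 microglia-like, 41 lymphoid-like, 27 endothelial-like, 14 mural-like, 13 fibroblast-like and 6 erythroid-like cells. The sort and the depletion of neurons set these numbers, so the share of transcripts that a class held is not its share in the tissue.

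Levels below are in CPM, the transcripts of a gene in a class and experiment scaled to a common total per sum, and are given where at least 5 cells were summed unless a smaller number is stated. They were compared between classes within a gene, not between genes. A class pair was called different at an adjusted p under 0.05 in edgeR's quasi-likelihood test, fitted over 5450 genes and 28 pairs of the 8 classes present in 2 or more experiments. That test used a random subset of UMIs that had not drawn the clusters; its log2 fold changes are followed by their standard errors. Committed precursor-like, neural stem cell-like, mural-like and fibroblast-like cells reached 5 cells in 1 experiment each, so their pairs have no test.

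**Figure D1:**
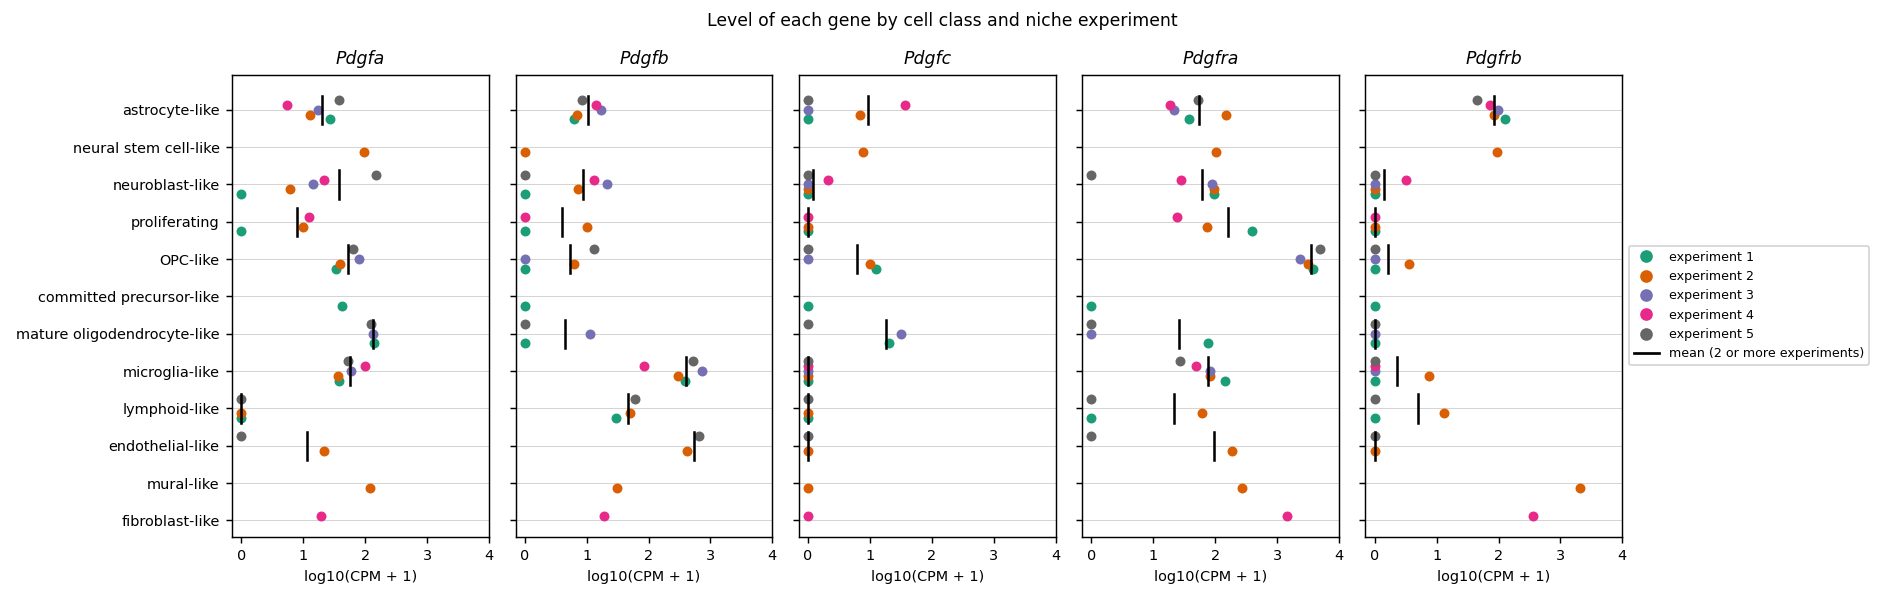
Level of each of the 5 genes, as log10 of CPM plus 1 on the horizontal axis, in each cell class. Each point is 1 niche experiment with at least 5 cells of the class and each black bar the mean over experiments; Pdgfra in OPC-like cells and Pdgfb in microglia-like and endothelial-like cells stand furthest to the right among classes seen in 2 or more experiments.

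Pdgfa encodes the A chain (chr5:138976014-138997370, minus strand, mm10), the ligand that acts through the alpha receptor. Among classes with at least 5 cells in 2 or more experiments, it was highest in mature oligodendrocyte-like cells, the myelin-forming class. Their level was 137, 135 and 125 CPM in experiments 1, 3 and 5 (132.3 ± 6.10 CPM, SD, n = 3). A transcript was held by 23 of 49, 5 of 10 and 2 of 5 of these cells. Microglia-like cells had 36.5, 35.4, 58.4, 97.6 and 52.1 CPM in experiments 1 to 5 (56.0 ± 25.3 CPM, SD, n = 5). All experiments of the mature class were therefore above all those of microglia-like cells, yet the pair was not called (log2 1.20 ± 0.63, edgeR adjusted p = 0.164).

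OPC-like cells had 33.2, 37.6, 77.2 and 61.7 CPM of Pdgfa in experiments 1, 2, 3 and 5 (52.4 ± 20.7 CPM, SD, n = 4), and the value in experiment 3 rested on 1 transcript. Astrocyte-like cells had 26.1, 11.7, 16.3, 4.401 and 36.8 CPM in experiments 1 to 5 (19.1 ± 12.7 CPM, SD, n = 5), and neuroblast-like cells 0, 5.00, 13.4, 20.6 and 147 CPM. The ranges of these 3 classes overlapped, and the 147 CPM came from 1 of 6 cells in experiment 5. Endothelial-like cells averaged 10.4 ± 14.8 CPM (SD, n = 2) and proliferating cells 6.84 ± 6.07 CPM (SD, n = 3). In experiments 1, 3 and 4, endothelial-like cells had 284, 163 and 404 CPM, from 2, 1 and 2 cells and 1, 1 and 9 UMIs. With all niche experiments pooled, endothelial-like cells had 124.6 CPM, in 5 of 27 cells, and mature oligodendrocyte-like cells 138.5 CPM, in 31 of 66. Pooled in the same way, mural-like cells had 386.8 CPM, in 2 of 14 cells, and the unnamed cells 101.0 CPM, in 9 of 26. A transcript was present in 47.0% of 66 mature oligodendrocyte-like cells, against 0 of 41 lymphoid-like cells, which allows a share of up to 7.32% of cells with a UMI but sets no limit on cells expressing the gene, at median depths of 5337 transcripts in the mature class and 3526 in the lymphoid class. Thinned to 1000 UMIs per cell, the share was 14.2% in the mature class, 9.25% in committed precursor-like, 8.47% in mural-like and 8.13% in unnamed cells. It was 5.88% in endothelial-like, 5.46% in neural stem cell-like, 4.25% in OPC-like, 4.12% in microglia-like and 1.95% in astrocyte-like cells.

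The test called Pdgfa in 8 of 28 class pairs (28.6%), beside 23.6% of all tests over genes and pairs, so the number of calls is near that of any gene. Mature oligodendrocyte-like cells were higher than astrocyte-like cells by log2 2.90 ± 0.71 (edgeR adjusted p = 0.00037), neuroblast-like cells by 2.62 ± 0.72 (adjusted p = 0.00194) and proliferating cells by 4.30 ± 1.19 (adjusted p = 0.00216). They were higher than OPC-like cells by log2 1.95 ± 0.67 (edgeR adjusted p = 0.018), a call that was lost in 5 of 14 alternatives (adjusted p of up to 0.37). Against lymphoid-like cells, the summed level was at least 6.08-fold higher in the mature class (edgeR adjusted p = 0.00603), with a floor of 3 counts over the group. The pair with endothelial-like cells was also called (edgeR adjusted p = 0.0301). There the tested subset of endothelial-like cells, from experiments 2 and 5 only, held no transcript. Microglia-like cells were called above proliferating cells (log2 3.10 ± 1.15, adjusted p = 0.0317) and astrocyte-like cells (log2 1.70 ± 0.65, adjusted p = 0.0377).

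These Pdgfa calls rested on few transcripts, and leaving out experiment 2 or experiment 3 brought them to 3 pairs in either case. Microglia-like against astrocyte-like cells lost its call in 11 of 14 alternatives, with an adjusted p of up to 0.229, and mature oligodendrocyte-like against astrocyte-like cells lost it only without experiment 3 (adjusted p = 0.0512). The mature class lost its call over endothelial-like cells in 4 of 13 alternatives and over neuroblast-like and lymphoid-like cells in 2 of 14 each, and microglia-like over proliferating cells lost it in 6 of 14.

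Outside the fit, neural stem cell-like cells of experiment 2 had 94.9 CPM of Pdgfa in 9 of 19 cells, against 11.7 CPM in 2 of 54 astrocyte-like cells of that experiment. This is a ratio of 8.09 (95% counting interval 1.86 to 73.3, from 14 and 2 UMIs), and no Pdgfa was found in the 7 stem cell-like cells of the other experiments. The median depth of stem cell-like cells was 6088 transcripts, against 2322 in astrocyte-like cells, and over all niche experiments their shares after thinning were 5.46% and 1.95%. Committed precursor-like cells, between precursor and myelinating stages, had 40.8 CPM of Pdgfa in experiment 1 (2 UMIs in 1 of 8 cells) and 96.5 CPM in experiment 2 (4 UMIs in 2 of 4 cells). Mural-like cells of experiment 2 had 119.5 CPM from 1 of 12 cells, and the 1 mural-like cell of experiment 4 had 1168 CPM (14 UMIs). Over all libraries, mural-like cells with 3 or more mural markers had 448 CPM of Pdgfa in 2 of 9 cells, against 0 of 18 other cells. Fibroblast-like cells of experiment 4 had 18.3 CPM.

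Pdgfb encodes the B chain (chr15:79995874-80014977, minus strand, mm10), which binds both receptors. It was found mainly in microglia-like cells, the brain's resident macrophages, and in endothelial-like cells. Microglia-like cells had 384, 304, 726, 82.3 and 513 CPM in experiments 1 to 5 (401.7 ± 239.5 CPM, SD, n = 5), with a transcript in 81 of 134, 29 of 56, 18 of 36, 4 of 20 and 24 of 60 cells. Experiment 4 was the lowest and experiment 3 the highest, and even the lowest lay above every experiment of the 6 classes named next. Endothelial-like cells had 418 CPM in experiment 2 (11 of 15 cells) and 653 CPM in experiment 5 (4 of 7 cells), a mean of 535.5 ± 165.9 CPM (SD, n = 2). In experiments 1, 3 and 4, where only 1 or 2 endothelial-like cells were present, they had 568, 491 and 770 CPM.

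The other classes were low in Pdgfb. Lymphoid-like cells averaged 45.2 ± 15.3 CPM (SD, n = 3), astrocyte-like cells 9.60 ± 4.91 CPM (n = 5) and neuroblast-like cells 7.64 ± 8.52 CPM (n = 5). OPC-like cells averaged 4.38 ± 5.84 CPM (SD, n = 4), mature oligodendrocyte-like cells 3.44 ± 5.95 CPM (n = 3) and proliferating cells 2.98 ± 5.17 CPM (n = 3), and these last 5 classes overlapped. Lymphoid-like cells lay above the range of astrocyte-like cells, but the pair was not called (edgeR adjusted p = 0.295). None of the 26 neural stem cell-like cells held a transcript, which allows a share of up to 11.5% of cells with a UMI. Mural-like cells of experiment 2 and fibroblast-like cells of experiment 4 had 29.7 and 18.3 CPM. A Pdgfb transcript was present in 74.1% of endothelial-like and 51.0% of microglia-like cells, against 2.02% of OPC-like cells, at median depths of 3183, 3139 and 5282 transcripts. After thinning, the shares were 39.5%, 27.1% and 0.258%.

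Pdgfb was called in 13 of 28 class pairs (46.4%), beside the 23.6% of all tests. Microglia-like and endothelial-like cells were each called above all 6 other classes in the fit. Microglia-like cells exceeded OPC-like cells by log2 6.70 ± 0.58 (edgeR adjusted p = 1.01e-28), astrocyte-like cells by 5.36 ± 0.51 (5.87e-24), neuroblast-like cells by 4.84 ± 0.48 (3.38e-22) and lymphoid-like cells by 3.5 ± 0.72 (1.35e-05). Endothelial-like cells exceeded OPC-like cells by log2 6.60 ± 0.80 (edgeR adjusted p = 8.27e-15), astrocyte-like cells by 5.27 ± 0.77 (2.15e-10), neuroblast-like cells by 4.75 ± 0.71 (5.20e-10) and lymphoid-like cells by 3.41 ± 0.87 (0.000768), on 22 cells from 2 experiments. These 12 calls held under every alternative that tested them, but a strict naming of clusters, described below, left the microglia-like pairs untested. The last call, lymphoid-like above mature oligodendrocyte-like cells (adjusted p = 0.046, 3 counts in the lymphoid class), was lost in 16 of 24 alternatives.

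Endothelial-like and microglia-like cells were not called different from each other (log2 -0.09 ± 0.54, edgeR adjusted p = 0.944). Within experiments 2 and 5, microglia-like cells had 0.726 (95% counting interval 0.445 to 1.24) and 0.786 (0.409 to 1.66) times the endothelial-like level. In experiment 4 the ratio was 0.107 (0.0513 to 0.223), from 20 microglia-like and 2 endothelial-like cells. In experiments 1 and 3, with 2 and 1 endothelial-like cells, it was 0.675 (0.184 to 5.62) and 1.48 (0.491 to 7.29).

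The microglia-like class was made of 3 clusters that were unequally spread over the experiments. The cluster led by Icam1, Il1a, Atf3 and Ccl3, genes of an inflammatory or stress response, held Pdgfb itself among its 10 leading genes; it had 726 CPM of Pdgfb in experiment 3 and 550 CPM in experiment 5, but 224 CPM in experiment 1 and 67.8 CPM in experiment 2 (8 cells), at a median depth of 1733 transcripts. The cluster led by Lyz1, Tlr2 and Cd14, innate immune genes, had 410 CPM in experiment 1 and 77.5 CPM in experiment 4, at a median depth of 3853 transcripts. The cluster led by H60c, C1qa, Cebpa and Tmem119, a homeostatic microglia gene among them, had 326 CPM in experiment 2 and a median depth of 5580 transcripts. Within experiments 1 and 2, the cluster led by Icam1 had the lower of the levels given, while within that cluster experiments 3 and 5 were the highest.

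Pdgfc encodes the C chain (chr3:81036416-81214040, plus strand, mm10), which is activated by proteolysis and binds the alpha receptor. It was close to the detection limit. Mature oligodendrocyte-like cells had 19.5, 31.1 and 0 CPM in experiments 1, 3 and 5 (16.9 ± 15.7 CPM, SD, n = 3), OPC-like cells 11.6, 9.06, 0 and 0 CPM in experiments 1, 2, 3 and 5 (5.17 ± 6.05 CPM, n = 4), and astrocyte-like cells 0, 5.87, 0, 35.3 and 0 CPM (8.23 ± 15.3 CPM, n = 5). The ranges overlapped, and experiment 4 decided the mean of astrocyte-like cells. No transcript was found in 306 microglia-like cells, which limits cells with a UMI, not cells expressing the gene, to 0.98% at this depth, nor in endothelial-like, lymphoid-like or proliferating cells. The summed level was at least 8.78-fold higher in mature oligodendrocyte-like and at least 3.94-fold higher in OPC-like than in microglia-like cells, with the floor of 3 counts over the group.

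Pdgfc did not pass the filter on low counts and was not tested in the fit. When every gene with a count was tested, it was called in 8 of 28 pairs, beside 8.99% of all tests in that setting. Mature oligodendrocyte-like cells were then above neuroblast-like cells (edgeR adjusted p = 6.04e-05) and astrocyte-like cells (adjusted p = 0.0412), and OPC-like cells above neuroblast-like cells (adjusted p = 0.00173), from 1 transcript in 211 neuroblast-like cells.

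Pdgfra encodes the alpha receptor (chr5:75152292-75198215, plus strand, mm10), which marks oligodendrocyte precursors in the brain. OPC-like cells had 3814, 3104, 2343 and 4970 CPM in experiments 1, 2, 3 and 5 (3558 ± 1117 CPM, SD, n = 4), with a transcript in 128 of 129, 82 of 82, 6 of 9 and 26 of 26 cells. The 2 OPC-like cells of experiment 4 had 896 CPM. The lowest of these values with 5 or more cells was above the highest value of every other class in the fit. An OPC-like cell with the transcript held a median of 19.7 and a maximum of 89.97 transcripts. OPC-like cells of different experiments fell mostly into different clusters, whose niche levels lay between 3061 and 4596 CPM.

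Proliferating cells averaged 161 ± 198 CPM of Pdgfra (SD, n = 3), endothelial-like cells 93.9 ± 133 CPM (n = 2) and microglia-like cells 76.1 ± 45.3 CPM (n = 5). Neuroblast-like cells averaged 60.4 ± 44.0 CPM (SD, n = 5), astrocyte-like cells 54.6 ± 53.4 CPM (n = 5), mature oligodendrocyte-like cells 25.4 ± 44.1 CPM (n = 3) and lymphoid-like cells 20.3 ± 35.1 CPM (n = 3). Neighbours in this order overlapped and none was called different from the next. Outside the fit, mural-like and neural stem cell-like cells of experiment 2 had 268 and 102 CPM.

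Pdgfra was called in 7 of 28 pairs (25%, beside the 23.6% of all tests), and these were the 7 pairs that hold OPC-like cells. OPC-like cells exceeded astrocyte-like cells by log2 5.33 ± 0.44 (edgeR adjusted p = 1.63e-31), neuroblast-like cells by 4.93 ± 0.44 (3.13e-26), microglia-like cells by 4.45 ± 0.42 (3.56e-24) and mature oligodendrocyte-like cells by 5.70 ± 0.59 (7.67e-20). They exceeded lymphoid-like, endothelial-like and proliferating cells by log2 5.88 ± 0.65, 5.51 ± 0.77 and 4.38 ± 0.56 (adjusted p = 1.78e-17, 3.64e-11 and 1.66e-13). All 7 calls held under every alternative that tested them. Without experiment 2, 11 pairs were called, among them microglia-like above astrocyte-like cells (log2 1.95, adjusted p = 0.0192).

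In experiment 2 astrocyte-like cells had 147 CPM, against 17.6 to 51.6 CPM in the other experiments. Endothelial-like and lymphoid-like cells held Pdgfra in experiment 2, at 188 and 60.8 CPM, and had no transcript in experiment 5. In microglia-like cells, 42 of 306 cells with 3 or more precursor markers held 80.2 of the 117 Pdgfra transcripts, and 13 cells with markers of a second class held 69.2. In astrocyte-like cells, 83 cells with 3 or more precursor markers had 58.5 CPM and the other 167 had 40.7 CPM, while 9 astrocyte-like cells with markers of a second class had 7.46 CPM. In mural-like cells the levels were 188.9 CPM with 3 or more precursor markers and 189.9 CPM with fewer. Over all libraries, mural-like cells with 3 or more mural markers had 48.65 CPM of Pdgfra, in 2 of 9 cells. The other mural-like cells had 303.9 CPM, in 8 of 18 cells. Among proliferating cells of all libraries, Pdgfra was found in 8 of 18 cells with 3 or more precursor markers and in 3 of 24 other cells. After thinning, Pdgfra remained in 94.3% of OPC-like cells (98.4% unthinned), against 6.27% of astrocyte-like (15.2% unthinned) and 5.77% of microglia-like cells (15.4% unthinned), at median depths of 5282, 2322 and 3139 transcripts. The part of these markers and of cells of a second class in the low levels was not tested.

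The receptor was lower in committed precursor-like than in OPC-like cells. Over all libraries, 4 of 15 committed precursor-like cells held Pdgfra (86.96 CPM), beside 79 of 352 astrocyte-like cells (68.6 CPM). The committed class is the stage after the precursor and is marked by Gpr17, Bmp4 and Enpp6. None of the 8 such cells in experiment 1 held a Pdgfra transcript, against 3814 CPM in OPC-like cells, which is at least 62.6-fold lower. In experiment 2, 4 committed precursor-like cells held 3 UMIs (72.4 CPM, 0.0233 times the OPC-like level, 95% counting interval 0.00481 to 0.0682). Mature oligodendrocyte-like cells had 76.3, 0 and 0 CPM in experiments 1, 3 and 5, and in experiment 1 a single cell held 17.6 of the transcripts. In the single libraries, mature oligodendrocyte-like cells had 166 CPM in the old library (3 of 5 cells, 0.0534 times the OPC-like level, 95% counting interval 0.0195 to 0.117) and 106 CPM in the Nestin-GFP library (48 of 91 cells, 0.0265 times, 0.0207 to 0.0335). The 2 committed precursor-like cells of the Nestin-GFP library had 578 CPM (6 UMIs, 0.144 times, 0.0529 to 0.315). In each of these comparisons Pdgfra was below the precursor level. Cells with a transcript were more frequent in the mature class of the single libraries than the 6.06% of the niche experiments. The rise was not limited to that class. In the Nestin-GFP library, 52.5% of neuroblast-like and 43.6% of astrocyte-like cells held Pdgfra, against 36.0% and 15.2% in the niche experiments. In the old library, 33.3% of lymphoid-like and 29.6% of microglia-like cells did, against 12.2% and 15.4%. Old astrocyte-like cells held none, and mural-like cells of either library were below their niche share. These differences were not tested.

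**Figure D2:**
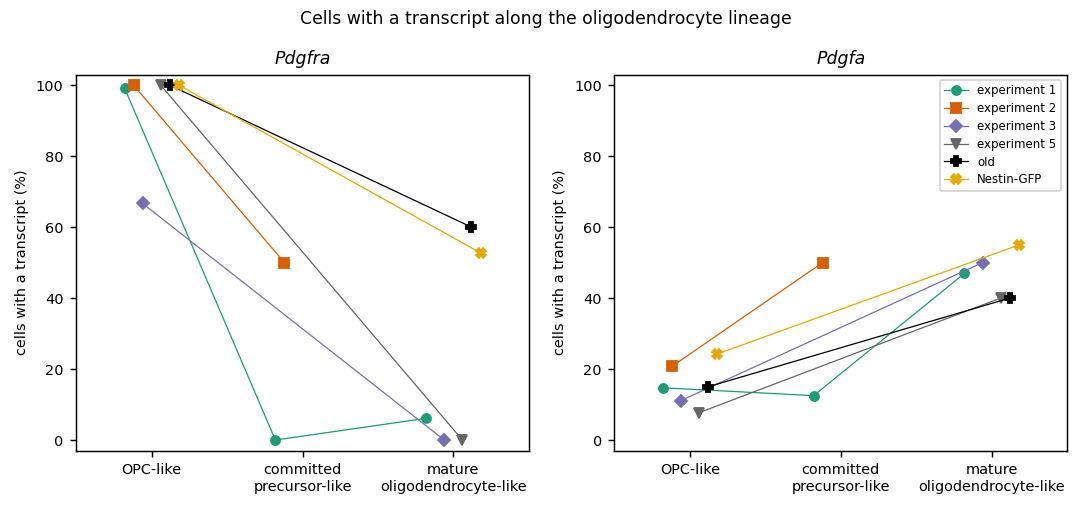
Percentage of cells with a transcript of Pdgfra (left) and Pdgfa (right) at 3 stages of the oligodendrocyte lineage, for classes of at least 4 cells; each colour is a niche experiment, the old library or the Nestin-GFP library, and lines join stages of the same source. Cells with Pdgfra made up 66.7% to 100% of OPC-like cells, and cells with Pdgfa 40.0% to 54.9% of mature oligodendrocyte-like cells.

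Pdgfra was also present outside the lineage in fibroblast-like cells, the collagen-producing cells of meninges and large vessels. In experiment 4 they had 1433 CPM (11 of 12 cells), against 17.6 CPM in 4 of 16 astrocyte-like cells, a ratio of 81.4 (95% counting interval 31.2 to 303). The 11 niche fibroblast-like cells with fewer than 3 precursor markers had 1549 CPM, and the other 2 had 993 CPM. The unnamed cells led by Reln, Trp73 and Ndnf had 2042 CPM in experiment 3 (12 of 17 cells) and 1169 CPM in experiment 4 (2 of 4 cells). In experiment 3 this equalled 0.872 times the OPC-like level (95% counting interval 0.593 to 1.32), and these cells also carried markers of precursors (12 of 12 in at least 10% of cells) and of mature neurons (8 of 10).

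Pdgfrb encodes the beta receptor (chr18:61045150-61085061, plus strand, mm10), the receptor of pericytes. Its highest level was in mural-like cells of experiment 2, with 2094 CPM in 5 of 12 cells, against no transcript in 15 endothelial-like cells (at least 33.5-fold higher) and 82.2 CPM in astrocyte-like cells (ratio 25.5, 95% counting interval 14.2 to 49.0). Mural-like cells had 528.5 CPM in the old library (2 of 8 cells, 2.81 times the astrocyte-like level, 95% counting interval 0.794 to 15.1) and no transcript in 5 cells of the Nestin-GFP library. The mural-like class was mixed and of low depth. All 9 of its cells with 3 or more mural markers, over all libraries, held Pdgfrb (2479 CPM), and none of its 18 other cells did. Fibroblast-like cells of experiment 4 had 359 CPM in 11 of 12 cells, 5.09 times the astrocyte-like level of 70.6 CPM (95% counting interval 2.78 to 9.75).

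Astrocyte-like cells had a lower level of Pdgfrb that was present in every experiment, at 125.5, 82.2, 98.1, 70.6 and 44.2 CPM in experiments 1 to 5 (84.1 ± 30.4 CPM, SD, n = 5). A transcript was held by 20 of 82, 11 of 54, 13 of 47, 9 of 16 and 6 of 51 cells. Neural stem cell-like cells of experiment 2 had 95.3 CPM (8 of 19 cells), 1.16 times the astrocyte-like level (95% counting interval 0.512 to 2.62), so no difference was detectable at this depth. The next class, lymphoid-like cells, averaged 4.05 ± 7.02 CPM (SD, n = 3) and did not reach the astrocyte-like range. Microglia-like, OPC-like and neuroblast-like cells averaged 1.29 ± 2.88, 0.647 ± 1.29 and 0.433 ± 0.967 CPM (SD, n = 5, 4 and 5). In the sums of at least 5 cells, no transcript was found in mature oligodendrocyte-like, proliferating or endothelial-like cells, and the astrocyte-like level was at least 10.9-fold, at least 9.22-fold and at least 1.87-fold higher. A transcript was present in 23.6% of astrocyte-like cells, against 0.654% of microglia-like cells, at median depths of 2322 and 3139 transcripts, and in 9.47% and 0.122% after thinning. Of 10 mural markers, 0 were found in at least 10% of astrocyte-like cells, where their levels summed to 70.6 CPM, against 17400 CPM in mural-like cells.

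Pdgfrb failed the filter on low counts, so the fit gave it no test. When all counts were tested instead of the subset, Pdgfrb was called in 7 of 28 pairs, the 7 that hold astrocyte-like cells, beside 23.5% of all tests in that setting. Astrocyte-like cells were then above neuroblast-like cells by log2 6.09 ± 0.77 (edgeR adjusted p = 1.32e-11), OPC-like cells by 6.02 ± 0.84 (7.40e-10), microglia-like cells by 5.30 ± 0.75 (1.24e-09) and lymphoid-like cells by 3.91 ± 1.15 (0.00553). With the subset and every gene that had a count, 5 pairs were called, and the pairs with lymphoid-like and endothelial-like cells were not (adjusted p = 0.0802 and 0.0928).

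**Figure D3:**
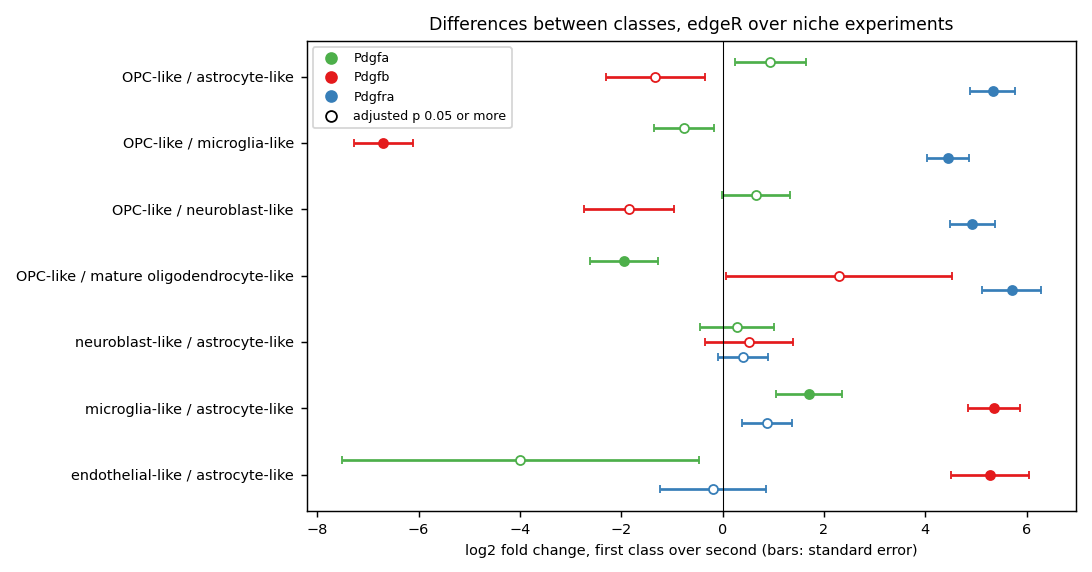
Log2 fold change of the tested genes Pdgfa, Pdgfb and Pdgfra between named class pairs, first class over second, with standard errors; filled points have an adjusted p under 0.05. The 4 Pdgfra values with OPC-like cells lie between 4.45 and 5.70, and the Pdgfb values of microglia-like and endothelial-like over astrocyte-like cells at 5.36 and 5.27.

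Set out by class pair, 9 of 21 tests of a member were called in the 7 named pairs. OPC-like against astrocyte-like cells gave 1 of 3 members (22.9% of all genes called, 8.95% higher), against neuroblast-like cells 1 of 3 (23.8%), against microglia-like cells 2 of 3 (39.5%) and against mature oligodendrocyte-like cells 2 of 3 (22.2%). Microglia-like against astrocyte-like cells gave 2 of 3 (41.2% of all genes called) and endothelial-like against astrocyte-like cells 1 of 3 (16.4%, 6.37% higher). Neuroblast-like against astrocyte-like cells gave 0 of 3 (32.8%) with edgeR, 0 at an unadjusted p under 0.05 and 0 with DESeq2. In these 7 pairs Pdgfra separated the precursors and Pdgfb the microglia-like and endothelial-like cells, while the differences in Pdgfa were smaller.

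Counted by who held the transcripts, microglia-like cells had 97.3%, 71.8%, 90.1%, 34.1% and 80.8% of Pdgfb transcripts in experiments 1 to 5. In experiment 4, 2 endothelial-like cells held another 34.2%. OPC-like cells held 95.3%, 93.1% and 96.4% of Pdgfra transcripts in experiments 1, 2 and 5, whereas the unnamed cells held 79.0% in experiment 3 and fibroblast-like cells 51.9% in experiment 4, where 9 and 2 OPC-like cells were present. Pdgfrb transcripts lay in astrocyte-like cells at 100% in experiment 1, 92.3% in experiment 3 and 85.7% in experiment 5. In experiment 2, 67.4% lay in mural-like cells and in experiment 4, 54.8% lay in fibroblast-like cells. Pdgfa had no such single holder in the niche experiments, where its largest share was 42.2%, in mature oligodendrocyte-like cells of experiment 1.

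**Figure D4:**
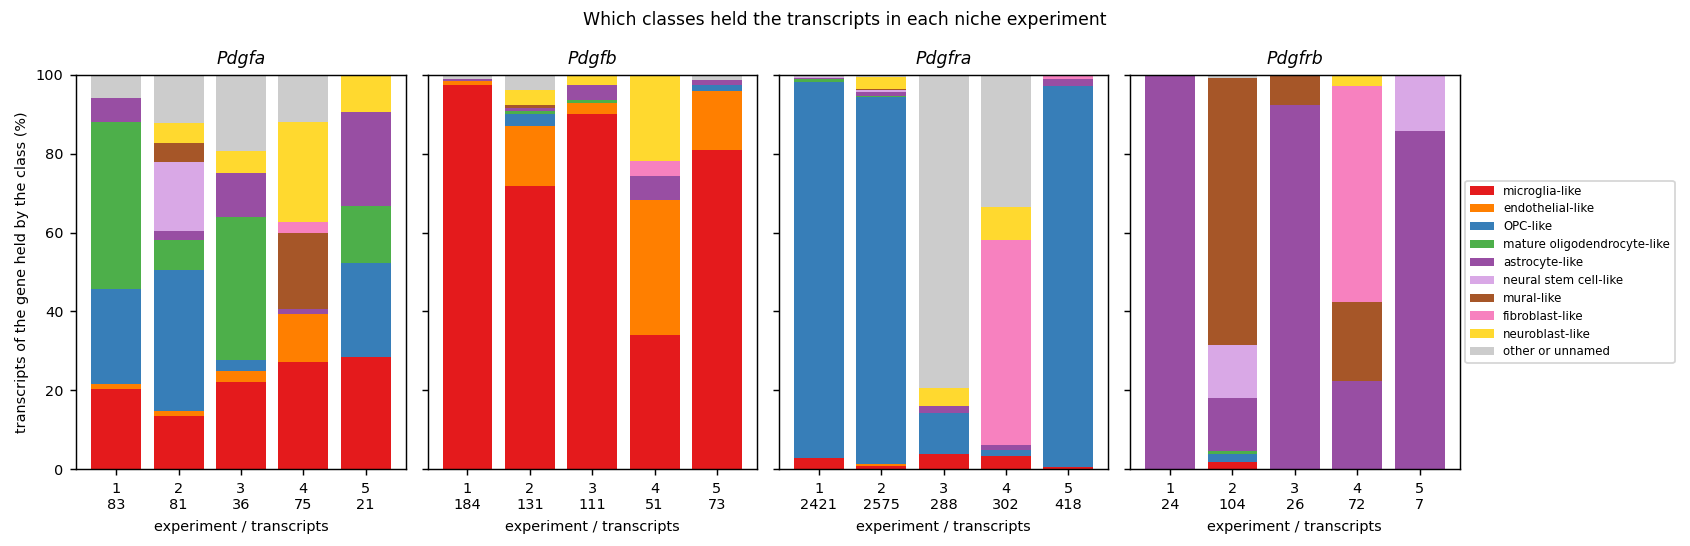
Share of the transcripts of Pdgfa, Pdgfb, Pdgfra and Pdgfrb held by each class in niche experiments 1 to 5; the number under each bar is the total of transcripts. The microglia-like part of Pdgfb is 97.3% in experiment 1 and 34.1% in experiment 4, and the OPC-like part of Pdgfra exceeds 93% in experiments 1, 2 and 5.

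Members were also counted together within cells. Of 248 OPC-like cells, 39 held Pdgfa and all 39 also held Pdgfra, which was present in 244 of them. Of 13 fibroblast-like cells, 11 held both receptors. In endothelial-like cells, all 5 cells with Pdgfa also held Pdgfb, out of 27, and in microglia-like cells 23 of 306 held Pdgfa and Pdgfb. Both receptors were found in 5 of 26 neural stem cell-like and 10 of 250 astrocyte-like cells, where Pdgfra was at the low level described above. The product of the separate shares would give 38.4 OPC-like, 10.2 fibroblast-like, 3.70 endothelial-like and 19.9 microglia-like cells. It would give 3.46 neural stem cell-like and 8.97 astrocyte-like cells. The counts lay near these numbers, so they do not show that the members go together, and no test was run.

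The old and Nestin-GFP libraries were set beside the niche experiments as values only. Pdgfra in OPC-like cells was 3111 CPM in the old library (95% counting interval 2853 to 3386, 20 of 20 cells) and 4009 CPM in the Nestin-GFP library (3828 to 4195, 66 of 66 cells), against 2343 to 4970 CPM in the niche experiments. Pdgfb in old microglia-like cells was 237 CPM (23 of 54 cells), against 82.3 to 726 CPM in niche microglia-like cells, and the Nestin-GFP library had none of these cells. Endothelial-like cells had 670 CPM of Pdgfb in the old and 362 CPM in the Nestin-GFP library, against 418 and 653 CPM in niche experiments 2 and 5. These values lay within or near the niche ranges.

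Pdgfa in mature oligodendrocyte-like cells was 277 CPM in the old library (10 UMIs in 2 of 5 cells) and 173.5 CPM in the Nestin-GFP library (50 of 91 cells), against 125 to 137 CPM in the niche experiments. Within the Nestin-GFP library the mature class had 3.37 times the Pdgfa level of OPC-like cells (95% counting interval 2.16 to 5.46) and 7.44 times that of astrocyte-like cells (4.01 to 15.3). Within the old library it had 16 times the OPC-like level (4.11 to 90.3) but 0.883 times the astrocyte-like level (0.275 to 3.29), since old astrocyte-like cells had 314 CPM (5 UMIs in 2 of 8 cells), against 4.401 to 36.8 CPM in the niche experiments. Pdgfc in Nestin-GFP mature oligodendrocyte-like cells was 23.3 CPM (12 of 91 cells), against 0 to 31.1 CPM in the niche experiments. Pdgfrb in astrocyte-like cells was 188 CPM in the old library (3 UMIs in 8 cells) and 99.7 CPM in the Nestin-GFP library (32 of 94 cells), against 44.2 to 125.5 CPM in the niche experiments. Old neuroblast-like cells had 368 CPM of Pdgfra (9 of 18 cells), against 0 to 94.1 CPM in the niche experiments. With 1 library each, these differences have no replicate check.

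**Figure D5:**
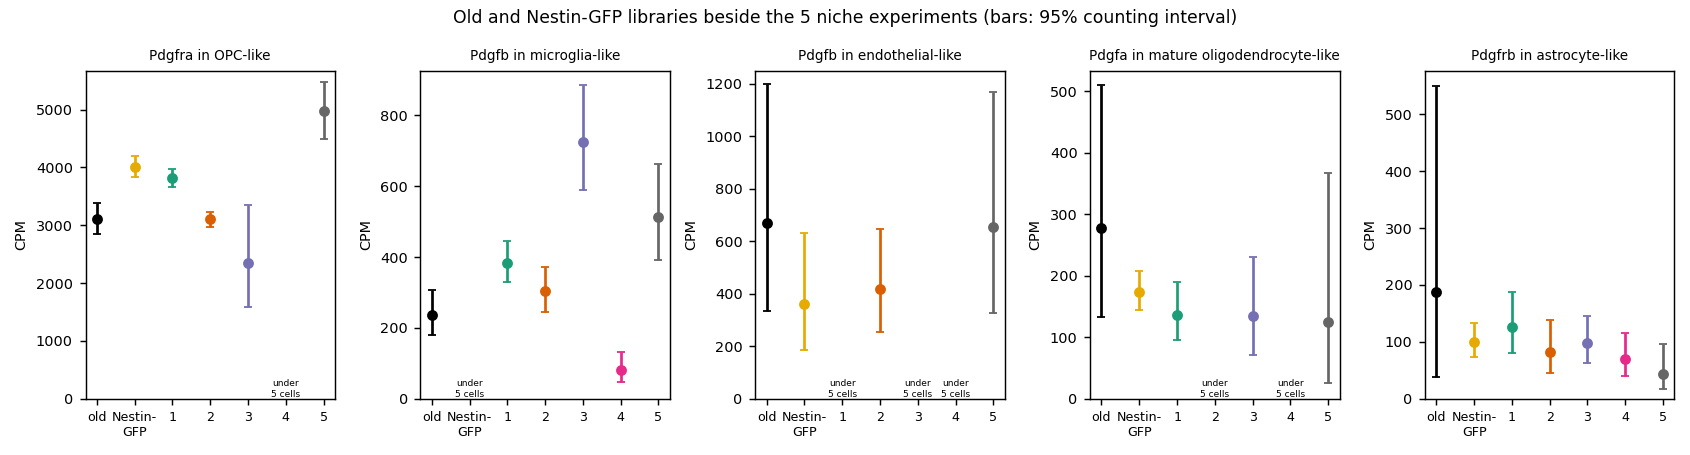
CPM of 5 gene and class combinations in the old library, the Nestin-GFP library and niche experiments 1 to 5, with 95% counting intervals, which cover counting error only. The old and Nestin-GFP values of Pdgfra in OPC-like cells (3111 and 4009 CPM) lie inside the niche range of 2343 to 4970 CPM.

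The other genes of the pathway were taken from a list of 39, of which 21 passed the filter. In OPC-like against astrocyte-like cells 5 were higher and 3 lower, beside 8.95% and 14% of all genes, with a median log2 fold change of 0.04 beside -0.13 over all genes. Cspg4, the NG2 proteoglycan that binds PDGF-AA and is also one of the markers that named the class, was higher (log2 5.00 ± 0.47, edgeR adjusted p = 4.41e-24), as it was over microglia-like, neuroblast-like and mature oligodendrocyte-like cells (4.70 ± 0.45, 5.63 ± 0.53 and 6.16 ± 0.73). So was Spry1, a Sprouty inhibitor of receptor tyrosine kinase signalling (log2 3.40 ± 0.47, 1.18e-11). Sparc, a matrix protein that binds PDGF-B, was lower (log2 -2.66 ± 0.45, 8.85e-08), and so was Nrp1, a co-receptor (log2 -2.90 ± 0.55, 2.37e-06).

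Against mature oligodendrocyte-like cells, OPC-like cells had 6 list genes higher and 2 lower (10.9% and 11.3% of all genes; median log2 0.49, beside 0.10 over all genes), and against neuroblast-like cells 5 higher and 4 lower (11.1% and 12.7% of all genes; median -0.02, beside -0.27). Lrp1, an endocytic receptor that associates with the beta receptor, was above both mature oligodendrocyte-like cells (log2 5.98 ± 0.74, edgeR adjusted p = 4.23e-14) and neuroblast-like cells (log2 2.37 ± 0.39, 1.90e-08). Spry1 was higher than in mature oligodendrocyte-like cells by log2 2.33 ± 0.55 (adjusted p = 0.000237) and than in neuroblast-like cells by 3.48 ± 0.48 (2.19e-11). Spry4, another Sprouty gene, had 193 CPM in OPC-like cells and no count in the tested subset of mature oligodendrocyte-like cells (adjusted p = 0.000101). Nrp1 was lower than in neuroblast-like cells (log2 -4.10 ± 0.52, 9.13e-14).

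In microglia-like against astrocyte-like cells 12 list genes were higher and 2 lower (22.9% and 18.3% of all genes; median log2 1.08, beside 0.19 over all genes), including all 4 immediate transcription targets that were tested. Junb, Egr1 and Socs3, an inhibitor of cytokine signalling, were higher by log2 3.93 ± 0.38, 4.00 ± 0.39 and 3.52 ± 0.37 (edgeR adjusted p = 1.33e-22, 5.42e-22 and 5.89e-19), and Sparc by 3.28 ± 0.36 (1.26e-17). Junb, Egr1 and Socs3 also respond to many other signals and to cell dissociation, whose part was not tested. OPC-like cells had 5 list genes higher and 11 lower than microglia-like cells (15.3% and 24.2% of all genes; median log2 -1.07, beside -0.29), among the lower Sparc (log2 -5.94 ± 0.48, 1.31e-32), Junb (-5.38 ± 0.47, 1.57e-27) and Socs3 (-4.06 ± 0.41, 5.06e-21).

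Neuroblast-like against astrocyte-like cells had 4 list genes higher and 4 lower (15.6% and 17.2% of all genes; median log2 -0.10, beside 0.11), with Egr1 and Ier2 higher (log2 1.49 ± 0.35 and 1.54 ± 0.38, edgeR adjusted p = 0.000256 and 0.000389) and Sparc and Spry2 lower (log2 -2.93 ± 0.41 and -1.79 ± 0.46, 3.27e-11 and 0.000848). Endothelial-like against astrocyte-like cells had 3 higher and 2 lower (6.37% and 10.1% of all genes; median log2 0.57, beside -0.65). Sparc and Nrp1 were higher there (log2 1.75 ± 0.48 and 1.81 ± 0.60, edgeR adjusted p = 0.00177 and 0.0142), and Lrp1 lower (log2 -3.25 ± 0.92, 0.00281). Pik3r1, a regulatory subunit of phosphoinositide 3-kinase, had no count in the tested subset of endothelial-like cells against 116 CPM among astrocyte-like cells (adjusted p = 0.0204).

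Across the means of the 8 classes, the genes whose pattern was most like each member were found among 6122 genes by Pearson's r of log2(CPM + 10), as a description over 8 points from shared libraries. For Pdgfb they were Hhex (r = 0.991), Tgfbr2 (0.982) and Arap3 (0.981), and for Pdgfra Gria3 (0.981), 1700086L19Rik (0.980) and Opcml (0.976). For Pdgfrb they were Agt (0.989), Grin2c (0.987) and Cyp4f15 (0.986), and for Pdgfa Atp6ap2 (0.963), Errfi1 (0.960) and Rab14 (0.95). For Pdgfc they were Add1 (0.978), Slc48a1 (0.973) and Scd1 (0.973). Between members, r ranged from -0.50 for Pdgfb and Pdgfc to 0.64 for Pdgfa and Pdgfc. Of the pairs of a ligand and a receptor, Pdgfa and Pdgfra had r = 0.17 and Pdgfb and Pdgfrb r = -0.18.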

How the data were processed

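The values deposited by the authors are estimated counts, that is, UMIs per gene and well after the authors' correction for barcode saturation. The submitters' processing notes name BWA 0.6.2-r126 and the build mm10; other settings are not stated in the sources used here. Per the labels, the reads listed for experiment 2 are a later sequencing of its libraries. Whole UMI numbers were recovered by inverting the correction (tolerance 0.05). Coordinates are from GENCODE annotation of the same build.

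Older symbols were replaced by current ones, leaving 18571 genes. Wells with at least 1000 transcripts were kept. UMIs were divided at random (share 0.5, seed 1). The first set was clustered without the members and predicted or pseudogene-like symbols (scanpy 1.11.5, 2000 variable genes, 30 components, resolution 1), with a second round inside large clusters. The rules of clustering and naming were settled over 5 set-ups after clusters had been seen, including members among leading genes, and before any test of a member. No doublet caller was run; leaving out 41 cells with markers of a second class was an alternative.

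The second set, estimated counts rounded to whole numbers, was summed per experiment and class of at least 5 cells and tested with edgeR 4.0.16 (R 4.3.3; TMM, filterByExpr, quasi-likelihood F test, experiment as block, Benjamini-Hochberg over all genes and pairs, 0.05). Experiments pair the sums because classes of 1 experiment come from the same libraries. Standard errors are the fold change divided by the root of F. DESeq2 1.42.0 was an alternative. On simulated counts for OPC-like against astrocyte-like cells (5450 genes, 50 changed per size), 100% of 16-fold and 84% of 4-fold increases were called, 44% of 4-fold and 92% of 16-fold decreases, and 0% of unchanged genes. Unlike the data, the simulated counts held no other class differences and no shared differences between experiments. The 0% is therefore not a rate of false calls in these data.

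Levels are CPM of all estimated counts. Intervals are exact, Poisson for counts and binomial for ratios of counts, at 95%, and cover counting error only, as does the floor of 3 counts. Thinning to 1000 UMIs left out 8 shallower cells. All members were named in every class; pathway genes named were the 4 with the smallest adjusted p among those called in each named pair, and like genes the 3 with the highest r that reached 100 CPM in a class. The members and lists were chosen with earlier results of these data known.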

Additional observations from a re-analysis of the deposited data

Results flagged for a closer look

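Among 19 groups of 4 or 5 experiments checked, 7 held an experiment that stood apart from the rest. Chance flags about 1 in 20 groups, but this rate cannot be assumed near 0, where 1 UMI can set an experiment apart. The number of flags therefore shows no excess over chance. Pdgfa in neuroblast-like cells was 146.8 CPM in experiment 5, from 2 UMIs in 1 of 6 cells. Pdgfra in astrocyte-like cells was 146.9 CPM in experiment 2, from 25 UMIs in 17 of 54 cells. Pdgfc in astrocyte-like cells was 35.28 CPM in experiment 4, from 8 UMIs in 5 of 16 cells with a median depth of 14371 transcripts. The other flags rested on 1 or 2 UMIs in a group otherwise at 0, namely Pdgfc in neuroblast-like cells of experiment 4 (1.081 CPM), and Pdgfrb in microglia-like cells of experiment 2 (6.437 CPM), in neuroblast-like cells of experiment 4 (2.163 CPM) and in OPC-like cells of experiment 2 (2.588 CPM).

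Outside the tested classes, Pdgfra was 2042 CPM in the unnamed cells of experiment 3. In 351 wells of at least 500 and under 1000 transcripts, which were left out of every class, Pdgfra was 351.3 CPM, with a transcript in 57 of them.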

How the results depend on the processing

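All 7 Pdgfra calls and 12 of 13 Pdgfb calls kept their direction and their call under every alternative that tested them; of 8 Pdgfa calls 1 did. The number of Pdgfa pairs was 4 with DESeq2, 2 with only the 2 classes of a pair and 3 to 6 when 1 experiment was left out, with 3 without experiment 2 or experiment 3; in 10 settings Pdgfa failed the filter and had no value. Pdgfb was called in 8 pairs with sums of at least 10 cells. Pdgfra was called in 14 pairs with seed 2, 12 with at least 2000 transcripts, 15 at resolution 1.5 and 7 to 11 when 1 experiment was left out, with 11 without experiment 2. Pdgfrb was called in 5 pairs with genes of any count, 7 with all counts and 5 with sums of at least 10 cells; in 21 settings it was not tested. Pdgfc was called in 8 pairs with genes of any count and not tested in 23 settings. The named pairs held 14 calls with genes of any count or with all counts, for which more members were tested. Some settings name other classes and so hold more or fewer pairs. Without the replicate block the counts were 8 for Pdgfa, 12 for Pdgfb and 7 for Pdgfra, and the calls lost were Pdgfa in microglia-like over astrocyte-like cells (adjusted p = 0.078) and Pdgfb in lymphoid-like over mature oligodendrocyte-like cells (0.0967).

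The following alternatives were chosen after seeing the data. Strict naming, which left 365 cells unnamed, gave 4 calls in the named pairs and 34 in the pathway list, against 9 and 68. It kept 102 microglia-like cells, and among niche experiments only experiment 2 held at least 5 of them. Pairs with microglia-like cells were therefore not tested under strict naming. Symbols as deposited gave 20 pairs for Pdgfb and 15 for Pdgfra, and clustering on genes detected everywhere gave 16 for Pdgfra.

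Reversed signs occurred in pairs that were not called. Neuroblast-like over astrocyte-like cells had log2 -0.65 (all counts), -0.21 (without cells of a second class), -0.05 and -0.49 (without experiment 3 or 4, in a leave-one-out range of -0.49 to 0.76) for Pdgfa, -0.20 (pair alone), -0.45 (strict naming) and -1.27 (symbols as deposited) for Pdgfb, and -0.23 (symbols as deposited) and -0.07 (without experiment 3, range -0.07 to 1.38) for Pdgfra. Endothelial-like over astrocyte-like cells had 0.09 (no replicate block and resolution 1.5), 0.42 (all counts), 0.68 (seed 2), 0.28 (genes detected everywhere), 0.61 (symbols as deposited) and 0.32 (without experiment 5, range -4.74 to 0.32) for Pdgfra. Microglia-like over astrocyte-like cells had -0.40 for Pdgfra without cells of a second class, and OPC-like over neuroblast-like cells 0.43 for Pdgfb with symbols as deposited. The causes were not tested. Depth limits Pdgfc and the low levels of each gene, where 1 transcript can set a mean.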
